A study of Homo sapiens with 66 samples.

Results

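Binding sites of the hypoxia-inducible factors (HIF) were examined at 6 loci that hold 7 kidney cancer susceptibility genes: BHLHE41, ITPR2, SCARB1, ZEB2, DPF3, and the neighbours MYC and PVT1. In 50 lists of chromatin immunoprecipitation sequencing (ChIP-seq) peaks, a peak was taken when its centre lay within the body of one of these genes or within 150 kb of a transcription start site (TSS) of one. Overlapping peaks of all lists were merged into sites, which gave 108 sites at the 6 loci of 50169 in the genome. ITPR2 had 24 sites, MYC and PVT1 together 23, ZEB2 20, SCARB1 19, DPF3 12 and BHLHE41 10. Coordinates are those of GRCh37 (hg19). BHLHE41 lies on chromosome 12 from 26272963 to 26277970, ITPR2 on chromosome 12 from 26488285 to 26986127, and SCARB1 on chromosome 12 from 125261402 to 125367214. ZEB2 lies on chromosome 2 from 145121931 to 145278624 and DPF3 on chromosome 14 from 73075742 to 73360809, and all 5 of these genes are read from the minus strand. MYC and the long non-coding RNA gene PVT1 lie on the plus strand of chromosome 8, from 128747680 to 128755197 and from 128806772 to 129199347.

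HIF is a dimer of an oxygen-regulated α subunit, HIF-1α or HIF-2α, and the constitutive subunit HIF-1β. In oxygen, the von Hippel-Lindau (VHL) protein marks the α subunits for destruction. In low oxygen, or where VHL is lost as in most clear cell kidney cancers, the dimers accumulate and bind DNA at hypoxia response elements (HRE), often far from the genes they regulate. The genes studied here lie near inherited association signals for kidney cancer. BHLHE41 encodes a transcriptional repressor of the circadian clock. ITPR2 encodes an inositol trisphosphate receptor, a calcium release channel of the endoplasmic reticulum. SCARB1 encodes the scavenger receptor that takes up cholesterol from high-density lipoprotein. ZEB2 encodes a zinc-finger repressor that acts on E-cadherin, DPF3 a subunit of BAF chromatin-remodelling complexes, MYC a transcription factor that drives growth, and PVT1 a non-coding RNA beside MYC.

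The lists came from 25 groups of 2 ChIP libraries each, in 3 human cell lines, with antibodies against HIF-1α (16 libraries), HIF-2α (16) and HIF-1β (18). HKC8 is a kidney proximal tubule line. In the severity and duration experiment (24 libraries), HKC8 cells were kept in 0.5% oxygen (6, 16 or 48 h) or in 3% oxygen (6 h). In the knockout experiment (14 libraries), the exposure was 0.5% oxygen for 16 h, and the HKC8 cells were wild type (WT) or had the gene of HIF-1α (HIF-1α KO) or of HIF-2α (HIF-2α KO) disrupted. Each knockout is a single clone made with CRISPR-Cas9, so the deletion and the clone cannot be told apart. The knockout labels are not checked by these lists, since none for the antibody to the missing isoform was analysed here. RCC4, a kidney cancer line without functional VHL, was studied in normoxia, and HepG2, a liver cancer line, in 0.5% oxygen for 16 h (6 libraries each). Line, oxygen level and experiment cannot be told apart when the lines are compared. The study describes the replicates as independent ChIP-seq experiments, and p-values measure the spread between these libraries.

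A list gives where a peak was called and its score, with no read depth and no signal where nothing was called. Lists of the severity and duration experiment held 237 to 1793 peaks and 2 to 10 of the sites at the 6 loci. Those of the knockout experiment held 915 to 8279 peaks and 2 to 27 sites. For RCC4 and HepG2 the ranges were 911 to 6851 peaks and 4 to 24 sites. The overlaps between the HepG2 lists did not follow their isoform labels. The list labelled HIF-1α replicate 2 shared 49.9% of the shorter list with that labelled HIF-2α replicate 1, more than the 34.8% shared between the HIF-1α replicates or the 25.9% between the HIF-2α replicates. The test of the isoforms is therefore also given without HepG2. In HKC8 at 48 h and in WT, an overlap between isoforms also exceeded that of the HIF-1α replicates (10.2% against 6.21%, and 77.4% against 73.9%). Neither exceeded the overlap of the HIF-2α replicates there (19% and 85.3%). Scores were ranked only within a list, as a percentile at which 100 is the highest score. A percentile depends on how many weaker peaks a list reaches, so percentiles from lists of different length are set side by side as values and not read as a change in binding.

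**Figure D1:**
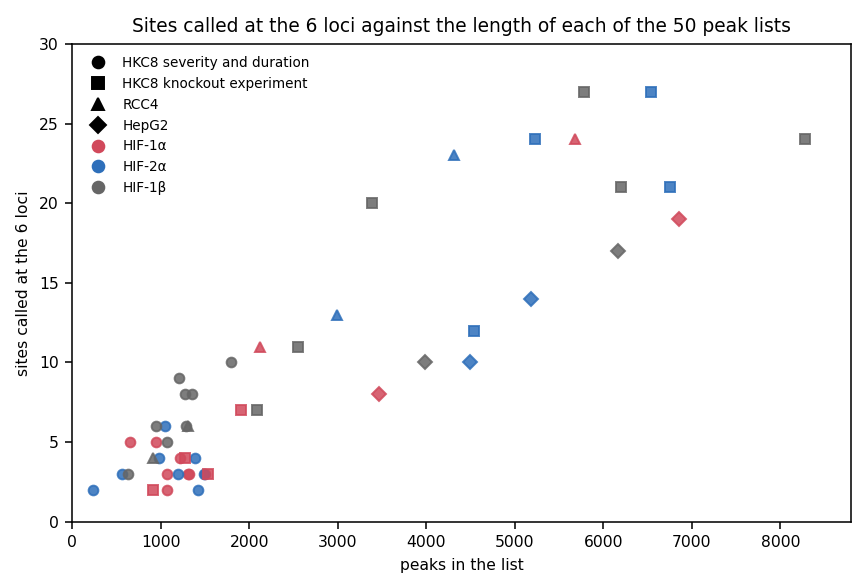
Sites called at the 6 loci (vertical axis) against the number of peaks in the list (horizontal axis) for each of the 50 libraries, coloured by antibody and with a symbol for each experiment or line. Lists of the severity and duration experiment hold at most 1793 peaks and at most 10 of the sites, and lists of the knockout experiment reach 8279 peaks and 27 sites.

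The sequences below are shown because they are the most often called site of each locus on chromosomes 2, 12 and 14, together with the second SCARB1 site, which was added after its values were seen. A site is named by its gene and the distance of its centre from the gene's annotated 5′ end, positive along the gene. Each sequence is the plus strand of GRCh37, 100 bp to either side of the centre. Capitals mark the HRE core, ACGTG or GCGTG, and the AP-1 motif, TGACTCA or TGAGTCA, on either strand, so that CACGT is a core on the minus strand and CACGTG a core on both.
BHLHE41 -0.639 kb (chr12:26278509-26278709): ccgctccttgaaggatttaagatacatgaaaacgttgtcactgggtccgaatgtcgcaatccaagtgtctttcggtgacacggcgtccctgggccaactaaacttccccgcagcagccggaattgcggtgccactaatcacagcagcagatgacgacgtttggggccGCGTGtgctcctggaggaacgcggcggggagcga
ITPR2 +141 kb (chr12:26844599-26844799): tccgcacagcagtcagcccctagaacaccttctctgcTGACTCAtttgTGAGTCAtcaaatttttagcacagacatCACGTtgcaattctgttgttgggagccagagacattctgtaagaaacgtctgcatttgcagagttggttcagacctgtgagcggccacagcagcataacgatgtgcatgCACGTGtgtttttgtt
SCARB1 +44.3 kb (chr12:125322814-125323014): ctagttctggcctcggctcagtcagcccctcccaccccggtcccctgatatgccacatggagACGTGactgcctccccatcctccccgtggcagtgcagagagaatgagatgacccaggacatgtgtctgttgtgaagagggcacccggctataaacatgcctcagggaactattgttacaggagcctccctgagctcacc
SCARB1 -57.1 kb (chr12:125424251-125424451): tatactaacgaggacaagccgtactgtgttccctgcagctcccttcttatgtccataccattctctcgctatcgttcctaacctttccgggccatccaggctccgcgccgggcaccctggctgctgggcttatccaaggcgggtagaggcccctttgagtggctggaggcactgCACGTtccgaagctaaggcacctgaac
ZEB2 -139 kb (chr2:145417329-145417529): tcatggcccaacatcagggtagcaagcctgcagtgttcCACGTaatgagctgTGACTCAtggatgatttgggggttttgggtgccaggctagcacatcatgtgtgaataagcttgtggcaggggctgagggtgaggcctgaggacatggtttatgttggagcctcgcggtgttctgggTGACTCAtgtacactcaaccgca
DPF3 +286 kb (chr14:73075079-73075279): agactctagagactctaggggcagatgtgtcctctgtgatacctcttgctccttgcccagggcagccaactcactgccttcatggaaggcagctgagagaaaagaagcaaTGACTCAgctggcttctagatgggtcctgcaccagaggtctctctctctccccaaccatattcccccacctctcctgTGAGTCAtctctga

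Of these 6 sequences, 5 held an HRE core, and that of DPF3 +286 kb held no match to it. The distance from the centre to the nearest core was 36 bp at SCARB1 +44.3 kb, 60 bp at ZEB2 -139 kb, 69 bp at BHLHE41 -0.639 kb and 76 bp at SCARB1 -57.1 kb. ITPR2 +141 kb held 3 core matches, of which 2 are both strands of 1 CACGTG. AP-1 motifs stood beside the cores at ITPR2 +141 kb and ZEB2 -139 kb, with 2 matches in each. The sequence shown for DPF3 +286 kb held 2 AP-1 matches and no core, while its whole merged site (2539 bp) held 11 core matches. Across the loci, a core lay within 100 bp of the centre at 29 of 48 sites called in at least 2 libraries (60.4%, 95% Clopper-Pearson interval 45.3 to 74.2), beside 55.4% of the 14554 such sites in the genome. Among sites called in 1 library the share was 18.3% (interval 9.52 to 30.4) at the loci and 25.2% in the genome. The AP-1 motif lay within 100 bp at 11 of the 48 sites (22.9%, interval 12 to 37.3), and in 14.5% of such sites in the genome. Of windows of the same length round protein-coding TSS, 41% held a core and 2.46% an AP-1 motif. The intervals cover counting error only.

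Most sites at the loci were called rarely and lay far from promoters. Of the 108 sites, 60 (55.6%) were called in 1 library only, against 71% of sites in the genome, and 10 (9.26%) in at least 10 libraries, against 5.29%. By their centres, 72 lay in introns, 10 in exons or untranslated regions and 26 between genes. The median distance to the nearest protein-coding TSS was 87.3 kb at the loci and 41 kb over all sites. Sites within 1 kb of a protein-coding TSS were 8 at the loci (7.41%, against 9.76% in the genome), and 1 site lay within 1 kb of the 5′ end of a member gene. With every annotated TSS of the member genes counted, those of the non-coding PVT1 included, 10 of the 108 sites lay within 1 kb.

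**Figure D2:**
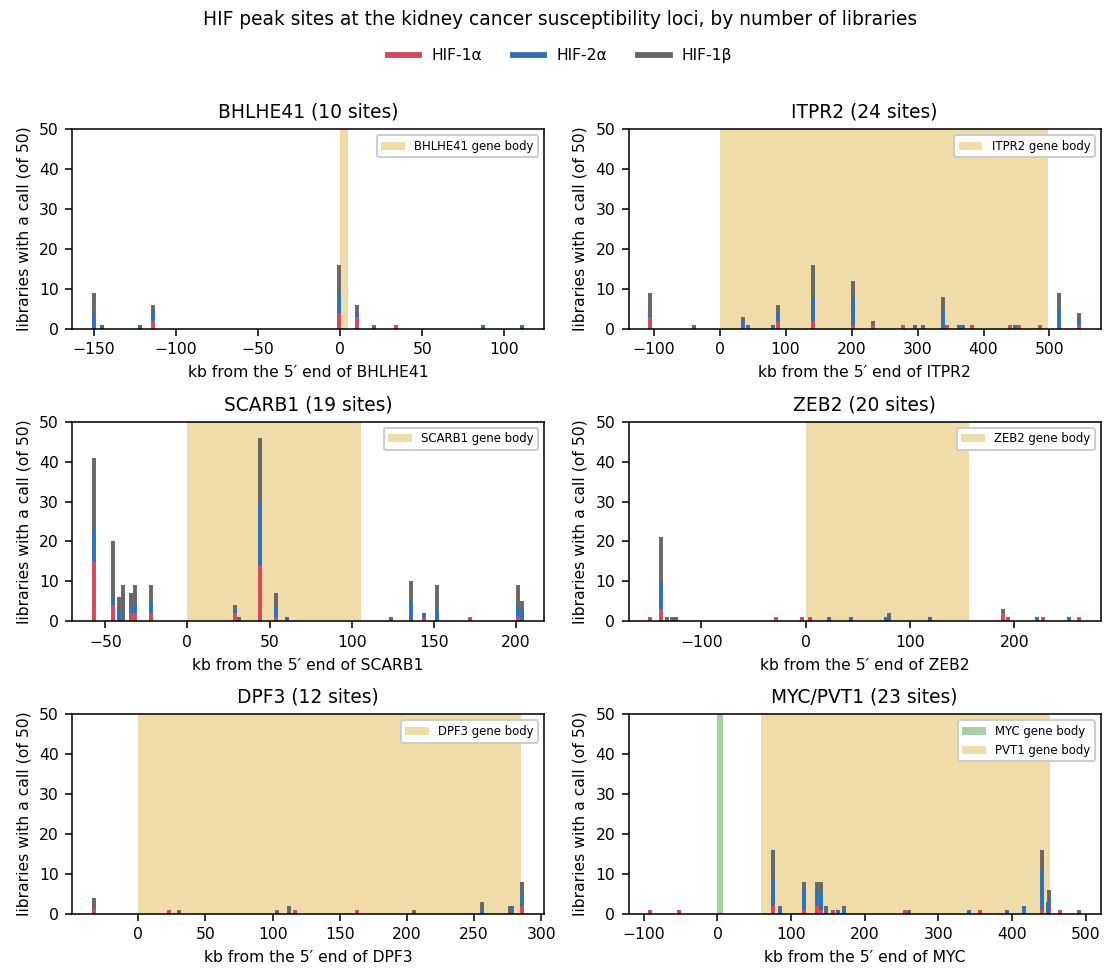
The sites of each locus by distance from the gene's 5′ end in kb (horizontal axis) and number of the 50 libraries with a call (vertical axis), coloured by antibody, with gene bodies shaded. SCARB1 has the 2 sites called in over 25 libraries, and at the other loci no site reached more than 21.

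The number of sites near a gene depends on its length. Of 20163 protein-coding genes, 0.62% had at least as many sites as ITPR2, 0.947% as PVT1, 1.4% as ZEB2, 1.8% as SCARB1, 14% as DPF3, 25.3% as BHLHE41 and 41.8% as MYC. Per kb of window searched, the shares were 12.6% for ITPR2, 11.8% for PVT1, 2.41% for ZEB2, 2.21% for SCARB1, 39.7% for DPF3, 14.9% for BHLHE41 and 30.3% for MYC. SCARB1 and ZEB2 were thus among the genes with the most sites on both measures, and ITPR2 and PVT1 were lower in the order per kb. These counts include sites called in 1 library only, which were 17 of the 20 ZEB2 sites (85%, against 71% in the genome). At SCARB1 they were 4 of 19 (21.1%). A site called in at least 10 libraries was found for 6 of the 7 genes, and for 37.3% of protein-coding genes. The windows of the 7 genes were longer, with a median of 425 kb against 310 kb, and 1 site, PVT1 +15.7 kb, counts for both MYC and PVT1.

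SCARB1 had the sites called in the most libraries. SCARB1 +44.3 kb (chr12:125322109-125324237), in an intron, was called in 46 of 50 libraries: 14 of 16 with HIF-1α, all 16 with HIF-2α and 16 of 18 with HIF-1β. It was missed in replicate 2 of HIF-1α and of HIF-1β at 48 h, in replicate 1 of HIF-1α in 3% oxygen and in replicate 3 of HIF-1β in RCC4. Few protein-coding genes (0.526%) had a site called in as many libraries. Its median percentile was 95 with HIF-1α, 98.3 with HIF-2α and 97.1 with HIF-1β.

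In every list of the knockout experiment SCARB1 +44.3 kb stood between the percentiles 97.6 and 99.6. In HepG2 the lists gave 97.5 and 99.0 with HIF-1α, 98.3 and 97.2 with HIF-2α, and 98.3 and 98.8 with HIF-1β. In RCC4 they were 93.9 and 81.1 for HIF-1α, 87.1 and 89.3 for HIF-2α, and 40.6 in the HIF-1β list with a call. That HIF-1β list was the shortest of RCC4, with 911 peaks.

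SCARB1 -57.1 kb (chr12:125422544-125425991), between genes, was called in 41 libraries. It was found with HIF-1α in 15 of 16 libraries and with HIF-1β in all 18, but with HIF-2α in 8 of 16. Among the lists for severity and duration, 7 of 8 with HIF-1α held it, at percentiles of 98.2 and 98.6 (0.5% oxygen, 6 h), 93.7 and 96.2 (16 h), 95.9 in 1 list (48 h) and 97.4 and 98.0 (3% oxygen). None of the 8 HIF-2α lists there held it. In the longer WT lists its percentile was 91.2 and 92.6 with HIF-1α and 60.8 and 63.0 with HIF-2α, in lists of 1913 and 1535 peaks with HIF-1α and of 4537 and 6749 with HIF-2α.

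At SCARB1 -57.1 kb the RCC4 percentiles were 99.4 and 95.8 for HIF-1α and 85.7 and 67.7 for HIF-2α. In HepG2, whose isoform labels are in doubt, the values were 92.1 and 99.1 for HIF-1α and 98.8 and 92.2 for HIF-2α. HIF-2α in HIF-1α KO cells gave 57.9 and 65.5. With HIF-1β, the WT lists gave 95.1 and 94.5, those of HIF-1α KO cells 41.1 and 79.2, and those of HIF-2α KO cells 93.2 and 62.0. These HIF-1β lists held 6199 and 8279 peaks in WT, 3387 and 5786 in HIF-1α KO and 2550 and 2085 in HIF-2α KO cells.

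A pair of sites upstream of SCARB1 was found mainly with HIF-1β. SCARB1 -45.3 kb (chr12:125411382-125414555) was called in 20 libraries, 14 with HIF-1β, 4 with HIF-1α and 2 with HIF-2α. All 8 HIF-1β lists of the severity and duration experiment held it, at percentiles between 80.0 and 94.2, and in the longer HIF-1β lists of the knockout experiment its percentiles ran from 14.1 to 69.5. SCARB1 -39.1 kb was called in 9 libraries, all with HIF-1β, of which 8 were the lists of the severity and duration experiment. At this site no HIF-α list held a peak. On the other side, SCARB1 +136 kb, beyond the 3′ end of the gene, was called in 10 libraries, 5 with HIF-2α and 5 with HIF-1β and none with HIF-1α. Both WT and both HIF-1α KO lists of HIF-2α held it, at 31.3 and 78.2 in WT and at 66.3 and 87.6 in the knockout. The other 15 SCARB1 sites were called in 1 to 9 libraries.

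**Figure D3:**
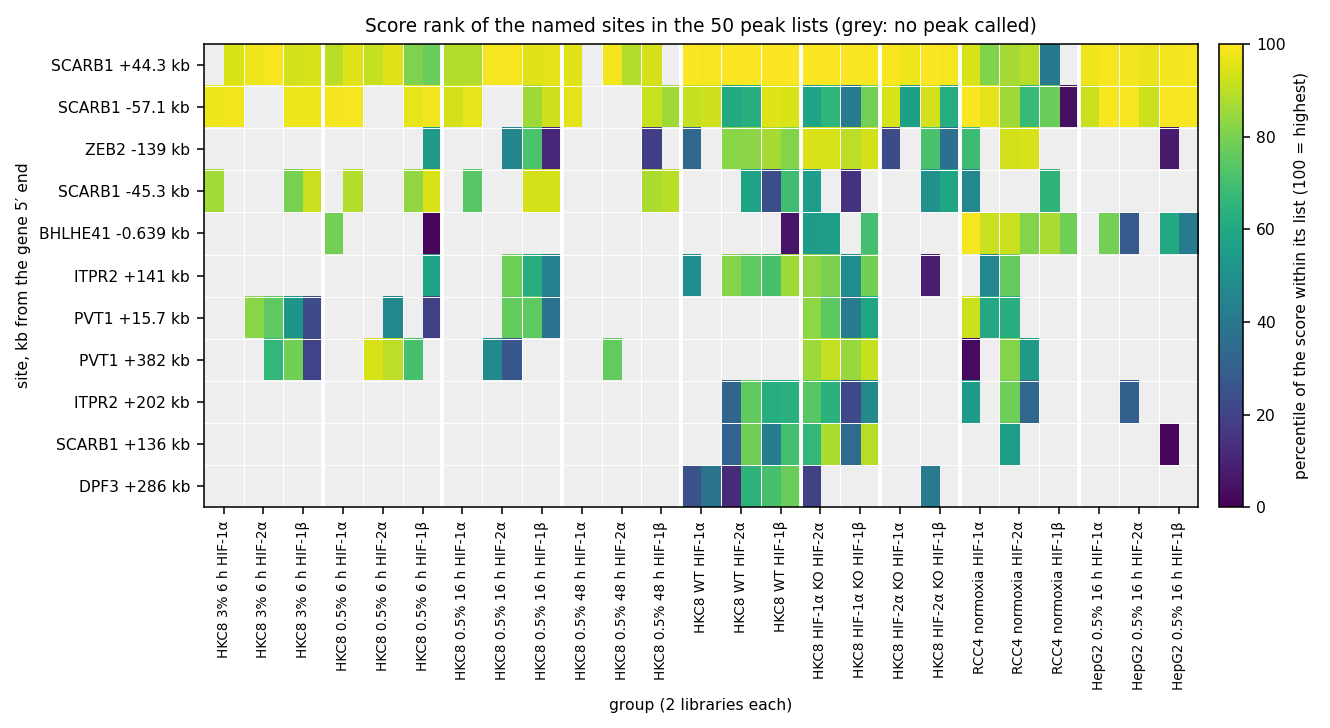
Percentile of the score within its list (colour, 100 highest) for the 11 sites called most often at their locus or in at least 10 libraries (rows) in the 50 libraries (columns, in groups of 2), with grey where no peak was called. SCARB1 +44.3 kb is filled in 46 of 50 columns, SCARB1 -57.1 kb lacks the HIF-2α columns of the severity and duration experiment, and PVT1 +15.7 kb and PVT1 +382 kb are grey in all WT columns.

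At ZEB2, 1 site stood apart from the rest. ZEB2 -139 kb (chr2:145416859-145418060), upstream and between genes, was called in 21 libraries, 3 with HIF-1α, 7 with HIF-2α and 11 with HIF-1β. Its HIF-2α percentiles were 82.1 and 82.6 in WT, 94.9 and 93.8 in HIF-1α KO cells and 93.0 and 93.9 in RCC4. With HIF-1β they were 86.9 and 81.3 in WT, 90.0 and 93.3 in HIF-1α KO and 71.3 and 36.7 in HIF-2α KO cells. The site was thus called in both lists of each genotype with HIF-1β. HIF-1α was called in 1 of 2 lists each of WT (33.7), HIF-2α KO (23.2) and RCC4 (68.5). The other 19 ZEB2 sites were called in 1 to 3 libraries, and the one nearest to a TSS of ZEB2 (0.032 kb), ZEB2 +3.61 kb, in 1 HIF-1α list of RCC4.

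BHLHE41 had the one frequently called site near the annotated 5′ end of its gene. BHLHE41 -0.639 kb (chr12:26277241-26280136) lies in an intron of SSPN and an exon of a non-coding RNA and was called in 16 libraries, 4 with HIF-1α, 5 with HIF-2α and 7 with HIF-1β. All 6 RCC4 lists held it, at percentiles of 98.7 and 91.6 with HIF-1α, 91.9 and 81.6 with HIF-2α and 87.4 and 78.5 with HIF-1β. Of the 6 WT lists only 1 HIF-1β list did, at 5.63, and HIF-2α in HIF-1α KO cells gave 54.7 and 55.9. BHLHE41 -150 kb, between BHLHE41 and ITPR2, had another pattern. It was called in 9 libraries, none with HIF-1α and all HKC8, among them all 8 HIF-2α and HIF-1β lists of WT and HIF-1α KO cells.

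The ITPR2 sites called most often lay in introns and had more calls with HIF-2α than with HIF-1α. ITPR2 +141 kb (chr12:26844083-26845645) was called in 16 libraries, 2 with HIF-1α, 6 with HIF-2α and 8 with HIF-1β, and in none of HepG2. Its HIF-2α percentiles were 82.0 and 75.1 in WT and 83.5 and 80.3 in HIF-1α KO cells. ITPR2 +202 kb (chr12:26782767-26784272), 0.058 kb from the TSS of a shorter ITPR2 transcript, was called in 12 libraries, 7 with HIF-2α, 4 with HIF-1β and 1 with HIF-1α. All 8 WT and HIF-1α KO lists of HIF-2α and HIF-1β held it, and none of HIF-2α KO cells did. The other 22 ITPR2 sites were called in 1 to 9 libraries.

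Sites within 1 kb of a TSS of the neighbouring genes INTS13, GTDC1 and DCAF4 were called in 1 to 9 libraries. ITPR2 -105 kb, 0.137 kb from a TSS of INTS13, a gene of the Integrator complex, was called in 9 libraries, 5 with HIF-1β, 3 with HIF-1α and 1 with HIF-2α. It was seen in all 3 lines, with 4 of its calls in HepG2. At GTDC1 and DCAF4, beside ZEB2 and DPF3, such sites were called in 1 to 4 libraries.

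DPF3 had no site called in 10 libraries. The most frequent, DPF3 +286 kb (chr14:73073898-73076436), lies at the 3′ end of the gene and was called in 8 HKC8 libraries of the knockout experiment. All 6 WT lists held it, with percentiles of 24.8 and 38.5 for HIF-1α, 11.9 and 65.0 for HIF-2α and 71.0 and 77.2 for HIF-1β. It was absent from all 24 lists of the severity and duration experiment, of which 6 came from the same line and exposure as WT. Of the knockout lists, 1 HIF-2α list of HIF-1α KO cells (19.3) and 1 HIF-1β list of HIF-2α KO cells (41.4) held it. DPF3 +163 kb, the site nearest to a TSS of DPF3, was called in 1 HIF-1α list.

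At MYC and PVT1, the sites lay mainly within PVT1. PVT1 +15.7 kb (chr8:128821289-128823465) and PVT1 +382 kb (chr8:129188367-129190195), both in introns of PVT1, were called in 16 libraries each. PVT1 +382 kb was found with HIF-2α in 10 of 16, with HIF-1β in 5 and with HIF-1α in 1, the first RCC4 list, at a percentile of 2.93. Its HIF-2α percentiles were 93.9 and 90.1 (0.5% oxygen, 6 h), 47.8 and 27.1 (16 h), 76.1 in 1 list (48 h), 66.2 in 1 list (3% oxygen), 85.2 and 91.4 (HIF-1α KO) and 81.3 and 53.7 (RCC4). PVT1 +15.7 kb was found with HIF-2α in 7, HIF-1β in 7 and HIF-1α in 2 libraries, both of them RCC4 (92.5 and 60.5). PVT1 +391 kb was called in all 6 HepG2 lists and in no other list. The site nearest to MYC, MYC -52.1 kb, was called in 1 HIF-1α list.

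HIF-1β calls were set beside those of HIF-α. Of 277 HIF-α calls at the 6 loci, 172 (62.1%) had a HIF-1β call at the same site in a library of the same condition, against 49% of 79902 HIF-α calls in the genome. Where both HIF-1β libraries had to hold the site, the shares were 46.9% and 33.8%. SCARB1 had 101 of the 277 calls, and without it the share in either library was 48.3% (85 of 176). Among sites called in at least 10 libraries the shares were equal, at 84%. By locus the share was 86.1% at SCARB1, 59.3% at BHLHE41, 57.7% at ITPR2, 50% at DPF3, 43.1% at MYC and PVT1 and 29.6% at ZEB2.

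Whether the sites took HIF-1α or HIF-2α was tested over the 7 conditions with both antibodies, 14 libraries each. For each site the difference in the share of libraries with a call, HIF-2α minus HIF-1α, was summed over conditions and compared with all exchanges of the labels within conditions (exact two-sided permutation test, Benjamini-Hochberg adjusted over all 9413 sites tested). No site at the loci or in the genome passed an adjusted p of 0.05 (background 0%), and the smallest adjusted p of all was 0.195. Without HepG2, 7 of 6357 sites in the genome passed and 0 of the 28 at the loci, with a smallest adjusted p of 0.0389. With the first HIF-1α or the first HIF-2α list of HepG2 left out, 4 sites in the genome passed and 0 at the loci. At an unadjusted p under 0.05, 365 sites passed, with 2.83% of sites higher with HIF-2α and 1.05% higher with HIF-1α. At the loci 34 sites were tested. More calls with HIF-2α were found at 16 (47.1%, against 47.2% in the genome). More with HIF-1α were found at 8 (23.5%, against 23.5%), and 10 had as many. The unadjusted threshold was passed by 1 site at the loci in each direction. Without HepG2, 416 sites in the genome and 2 at the loci passed the unadjusted threshold.

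The site with more HIF-1α calls was SCARB1 -57.1 kb, called in 13 of the 14 libraries of HIF-1α but in 6 of the 14 of HIF-2α (summed difference -3.5, exact two-sided permutation p = 0.00463, adjusted p = 0.474). The site with more HIF-2α calls was PVT1 +382 kb, called in 8 of 14 HIF-2α and 1 of 14 HIF-1α libraries (summed difference 3.5, exact two-sided permutation p = 0.00694, adjusted p = 0.5). Without HepG2 both summed differences were the same, with adjusted p of 0.254 and 0.279 by the same exact permutation test. With the percentile of the score in place of the call, 52 sites in the genome passed, and SCARB1 -57.1 kb was the one at the loci (exact two-sided permutation test, adjusted p = 0.0356), while PVT1 +382 kb had an adjusted p of 0.123. By the percentile without HepG2, 126 sites in the genome passed, again with SCARB1 -57.1 kb the one at the loci (exact two-sided permutation test, adjusted p = 0.0174). These percentiles come from lists of different length, and with the calls of lists of equal length the adjusted p of SCARB1 -57.1 kb was 0.177 by the same exact permutation test. SCARB1 +44.3 kb was called in 14 HIF-2α and 12 HIF-1α libraries (exact two-sided permutation p = 0.5).

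**Figure D4:**
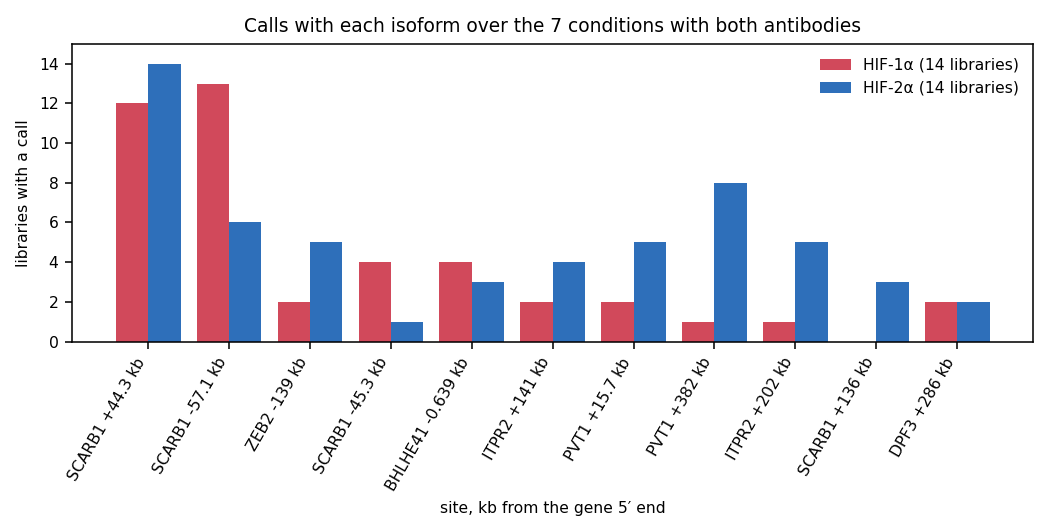
Number of libraries with a call (vertical axis, bars from 0) with HIF-1α and HIF-2α, 14 libraries each over 7 conditions, for the same 11 sites (horizontal axis). SCARB1 -57.1 kb has 13 HIF-1α and 6 HIF-2α calls, PVT1 +382 kb 1 and 8, and SCARB1 +44.3 kb 12 and 14.

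Sites were also classed by both replicates of each condition. In WT cells 7 sites at the loci were called in both HIF-2α and neither HIF-1α list, 3 in all 4 and none in both HIF-1α and neither HIF-2α list. The shares of HIF-2α-only among sites so classed were 70% of 10 at the loci and 69.7% of 3338 in the genome. In RCC4 there was 1 HIF-1α-only, 1 HIF-2α-only and 5 sites with both, so that HIF-2α-only sites were 14.3% of 7 at the loci and 29% of 1009 in the genome. SCARB1 -57.1 kb was HIF-1α-only in 3 conditions, which were 0.5% oxygen for 6 h, 0.5% for 16 h and 3% for 6 h. PVT1 +382 kb was HIF-2α-only in 0.5% oxygen for 6 h and 16 h.

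The severity and duration of hypoxia were compared in HKC8 by the same exact permutation test, within antibody, with 6 libraries a side. Between 3% and 0.5% oxygen at 6 h, 7 of 1062 sites tested were at the loci. Between 16 h and 6 h, 9 of 1576 were, and between 48 h and 6 h, 8 of 1099. None passed an adjusted p of 0.05 (background 0% in each) and none an unadjusted p under 0.05, the smallest exact two-sided p being 0.5 in each. In the genome the unadjusted threshold was passed by 9 sites higher in 0.5% than in 3% oxygen (0.847%), by 5 higher at 16 h (0.317%) and by 2 lower at 48 h (0.182%). By the percentile of the score, no site in the genome passed the adjusted threshold, and 45, 35 and 24 sites passed the unadjusted one. At 48 h, 6 of the 8 sites at the loci had fewer calls than at 6 h and none had more, whereas in the genome 49.1% of the 1099 sites had fewer and 19% more. The 48 h lists include the shortest of all, with 237 peaks.

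The knockout experiment addressed whether loss of an isoform changes where the other, or HIF-1β, is found. HIF-1β lists held 21 and 24 of the sites in WT, 20 and 27 in HIF-1α KO and 7 and 11 in HIF-2α KO cells. By count, WT and HIF-1α KO overlapped and HIF-2α KO lay below both. As shares of all sites called, these were 0.348% and 0.296% (WT), 0.602% and 0.48% (HIF-1α KO) and 0.438% and 0.341% (HIF-2α KO). HIF-2α lists held 12 and 21 sites in WT and 24 and 27 in HIF-1α KO cells, without overlap. Their shares of all sites called were 0.273% and 0.32% in WT and 0.47% and 0.428% in HIF-1α KO cells. HIF-1α lists held 3 and 7 in WT and 2 and 4 in HIF-2α KO cells, which overlap. The HIF-2α KO HIF-1β lists were also the shortest HIF-1β lists of the experiment, with 2085 and 2550 peaks against 3387 to 8279. With the HIF-1β lists cut to the 2085 highest scores, lists of WT and of HIF-2α KO cells both held a mean of 8.5 sites, and those of HIF-1α KO cells 12. With 2 libraries a side no exact test could reach p of 0.05 within an antibody.

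Of 19 sites with HIF-1β in both WT lists, 12 (63.2%) were called in both HIF-1α KO lists and 5 (26.3%) in both HIF-2α KO lists. The shares in the genome were 47.4% and 27.3% of 5046 sites. HIF-1β was called in both HIF-1α KO and neither HIF-2α KO list at 6 of the 19 sites (31.6%, against 18.7% in the genome), and the reverse at 0 of 19, against 6.02%. HIF-2α was kept in both HIF-1α KO lists at 9 of the 12 sites it held in both WT lists (75%, against 69.4%). HIF-1α was kept in both HIF-2α KO lists at 2 of 3 sites (66.7%, against 48%).

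A set of 5 sites shared 1 pattern of calls. BHLHE41 -150 kb, ITPR2 +202 kb, ITPR2 +339 kb, ITPR2 +514 kb and SCARB1 +136 kb were called in all 8 HIF-2α and HIF-1β lists of WT and HIF-1α KO cells. They were in none of the other 6 lists, which were those of HIF-1α in WT and of both antibodies in HIF-2α KO cells. In the genome 523 of 8685 sites (6.02%) had this pattern, beside 5 of 35 at the loci. The 6 lists without a call were the shorter ones, with 915 to 2550 peaks against 3387 to 8279, and the part of list length was not tested.

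At MYC and PVT1, lists of WT and HIF-1α KO cells did not overlap. None of the 6 WT lists held a site at MYC or PVT1, whereas HIF-1α KO lists held 6 and 9 with HIF-2α and 6 and 8 with HIF-1β, and those of HIF-2α KO cells 0 or 1. At the other 5 loci HIF-2α lists held 12 and 21 sites in WT and 18 and 18 in HIF-1α KO cells, which overlap, so that the higher number with HIF-2α in HIF-1α KO cells came with MYC and PVT1. HIF-1β lists there held 21 and 24 in WT and 14 and 19 in HIF-1α KO cells, without overlap. Over the genome the same lists held 6043 and 8120 sites in WT and 3321 and 5630 in HIF-1α KO cells, also without overlap. Of 35 sites at the loci called in these libraries, 5 were called in all 4 HIF-1α KO lists and in none of the 4 WT lists with HIF-2α or HIF-1β, and all 5 lay in PVT1, at +15.7, +58.9, +76.4, +82.2 and +382 kb. In the genome, 120 of 8685 sites (1.38%) had this pattern, 11 of them on chromosome 8. The reverse pattern was found at 343 sites (3.95%), 0 of them at the loci and 34 on chromosome 8.

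The WT lists were unlike the other lists in the neighbourhood too. They held 8 to 31 peaks between 150 and 1000 kb before MYC, and the other 44 lists held 0 to 3. The nearest WT peaks stood 188 to 245 kb before MYC and 164 to 252 kb after PVT1. Among the other 44 lists, 11 also held no peak at MYC or PVT1. In the severity and duration experiment, which used the same line, the lists held 0 to 3 peaks there, and the 16 h lists in 0.5% oxygen held 2 with HIF-2α in each replicate and 1 in each of the others. What sets WT apart at this locus was not tested.

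**Figure D5:**
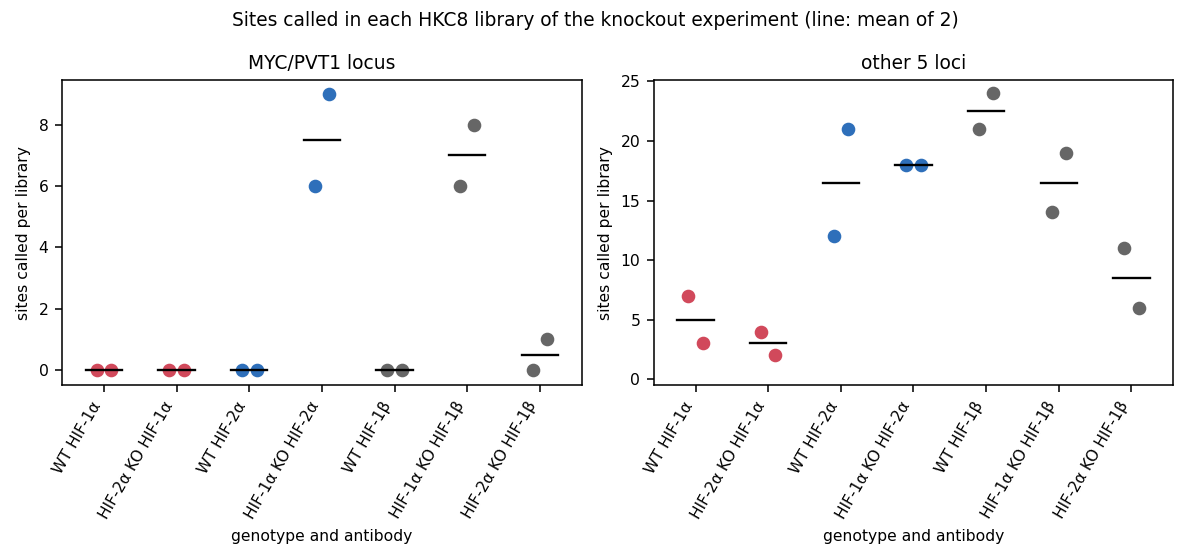
Sites called per library in the knockout experiment (points, with a line at the mean of 2), by genotype and antibody, at MYC and PVT1 (left) and at the other 5 loci (right). At MYC and PVT1 the WT libraries sit at 0 and the HIF-1α KO libraries between 6 and 9, and at the other 5 loci HIF-2α gives 12 and 21 in WT and 18 and 18 in HIF-1α KO.

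The lines were compared over all 3 antibodies, 6 libraries each, by the same exact permutation test within antibody. Between WT HKC8 and RCC4, 33 sites at the loci were tested of 8614. More calls in WT were found at 19 (57.6%, against 76.3% in the genome) and more in RCC4 at 12 (36.4%, against 14.5%). Those 12 include every PVT1 site tested, each with 0 WT calls. None of the 6 WT lists held a site at MYC or PVT1, and what sets WT apart there was not tested. Of the 33 sites, none passed an adjusted p of 0.05 (background 0%). At an unadjusted p under 0.05, 7.78% of sites in the genome were higher in WT and 0.847% higher in RCC4, and by the percentile of the score no site passed the adjusted and 1057 the unadjusted threshold. At the loci, DPF3 +286 kb was called in 6 WT and 0 RCC4 libraries (exact two-sided permutation p = 0.00926, the smallest these libraries allow, adjusted p = 0.232). This site was absent from every HKC8 list of the severity and duration experiment too, so its calls differed between experiments within HKC8. BHLHE41 -0.639 kb was called in 1 WT and 6 RCC4 libraries (exact two-sided permutation p = 0.0278, adjusted p = 0.232), and without the first HIF-1β list of WT its exact permutation p was 0.0556.

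Between WT HKC8 and HepG2, 30 sites at the loci were tested of 11007. More calls in WT were found at 17 (56.7%, against 57.4% in the genome) and more in HepG2 at 10 (33.3%, against 37.8%). None passed an adjusted p of 0.05 (background 0%). The unadjusted threshold was passed by 8.87% of sites in the genome that were higher in WT and 5.73% higher in HepG2, and by the percentile of the score no site passed the adjusted and 1941 the unadjusted threshold. PVT1 +391 kb was called in 0 WT and 6 HepG2 libraries and DPF3 +286 kb in 6 and 0 (both exact two-sided permutation p = 0.00926, adjusted p = 0.125). As given above, the HKC8 lists of the severity and duration experiment lacked DPF3 +286 kb too. ITPR2 +141 kb was called in 5 WT and 0 HepG2 libraries (exact two-sided permutation p = 0.0278, adjusted p = 0.189), and without the first HIF-1α list of WT its exact permutation p was 0.0556. Of 37 sites called in at least 2 of the 6 libraries of a line, 21 were so called in WT, 19 in RCC4 and 12 in HepG2, and 3 in all 3 lines. The shares were 56.8%, 51.4%, 32.4% and 8.11%, beside 61.4%, 22.5%, 42% and 5.09% of 11620 such sites in the genome. Sites at MYC and PVT1 count only for RCC4 and HepG2 here, since the WT lists held none.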

How the data were processed

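The samples were 50 ChIP libraries, each with a list of peaks, and 16 input libraries, not analysed here in their own right. Per the labels and the study's methods, the authors trimmed adaptors with TrimGalore (0.3.3), aligned reads to GRCh37 (hg19) with BWA (0.7.5a-r405), filtered with SAMtools (0.1.19) and BEDTools (2.17.0), marked duplicates with Picard (1.106) and called peaks with MACS and T-PIC, keeping those of both callers above a background limit. The lists used here name MACS only, are 1 a library, and were read as MACS calls before that filter, which no file states. Each deposited peak has a score, read as -10 log10 of the p-value that MACS gives. The lowest score in any list was 50.0, a p of 1e-05, so a site missing from a list may lie just under that limit. Read depth is unknown from the lists, which limits the precision.

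The members and gene lists were chosen with earlier results of these data known. Groups came from the sample titles. Of 131425 peaks, 131131 on chromosomes 1 to 22, X and Y were merged where they overlapped by 1 bp. Genes were those of GENCODE 44 mapped to GRCh37. Sites called in at least 2 of the libraries compared were tested over the whole genome with exact permutation tests (two-sided, labels exchanged within condition or antibody, Benjamini-Hochberg adjusted), checked on simulated data, with numpy 2.4.6 and scipy 1.17.1. Named sites are the most often called of each locus, those in at least 10 libraries, those past a test and the one nearest to each gene's TSS. Sites named beyond that rule (SCARB1 -39.1 kb, BHLHE41 -150 kb, ITPR2 +339, +514 and -105 kb, PVT1 +58.9, +76.4, +82.2 and +391 kb) were chosen after their values were seen. Alternatives were other windows, scores, list lengths, motif windows, the score percentile, a replicate block and leaving out libraries.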

Additional observations from a re-analysis of the deposited data

How the results depend on the processing

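The number of sites at the loci was 108 with a window of 150 kb. It was 205 with 500 kb, 36 with peaks of a score of at least 100 and 49 with the upper 50% of each list. The share of sites with an HRE core, 60.4% within 100 bp, was 77.1% within 250 bp and 91.7% in whole sites, since longer sequence was searched. The share of HIF-α calls with HIF-1β fell from 62.1% to 46.9% where both replicates had to have it. Mean HIF-1β sites per list in WT, HIF-1α KO and HIF-2α KO, 22.5, 23.5 and 9, were 14.5, 13 and 3.5 at a score of at least 100, and 8.5, 12 and 8.5 in lists of equal length. They were 21 to 24, 20 to 27 and 7 to 11 when each library was left out.

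The number of sites at the loci past an adjusted p of 0.05 was 0 in each of the 6 tests. It became 1 by the score percentile in the isoform test (SCARB1 -57.1 kb), also 1 by that percentile without HepG2, which was chosen after seeing the data, was 0 when each library was left out, and was 0 under the other alternatives run. The adjusted p of SCARB1 -57.1 kb ran from 0.0174 to 1 and its direction was the same in all 43 alternatives. The number at an unadjusted p under 0.05 was 2 by isoform, 2 against RCC4 and 3 against HepG2. With libraries left out it ran from 0 to 3, 0 to 3 and 0 to 5, being 0 where a whole replicate was left out (the lines then allow no p below 0.25), and over all alternatives from 0 to 4, 0 to 5 and 0 to 8. Same-numbered libraries did not deviate together in every condition (correlations of -0.347 to 0.253), so the numbers were not taken to pair the samples. A fit with the replicate block called 0 sites at the loci in each test, as did a block with the HepG2 numbers crossed, which was chosen after seeing the data.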

Other observations

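A site called in at least 25 libraries was found near 1 of the 7 genes (14.3%), near 8.68% of protein-coding genes, near none of 6 other genes beside kidney cancer association signals and near all 10 of a list of known HIF target genes. The largest number of libraries at any site had a median of 16 over the 7 genes, 10 over the other 6 and 43 over the HIF targets, and 7 over protein-coding genes. Among the other 6, it was 23 for EPAS1, the gene of HIF-2α, and 6 for CCND1, the gene of cyclin D1. For every gene, only sites in its body or within 150 kb of a TSS were counted. Binding farther away, such as at a distal enhancer, is therefore not covered by these counts.

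HKC8 cells in 0.5% oxygen for 16 h were studied in both HKC8 experiments. Called in either replicate, HIF-1α had 6 sites at the loci in the severity and duration experiment and 7 in WT cells, with 2 in both (33.3% of the first list and 28.6% of the second, against 18.3% and 16.1% of sites in the genome). HIF-2α had 7 and 21 with 3 in both (42.9% and 14.3%, against 45.2% and 11.8%), and HIF-1β 11 and 26 with 7 in both (63.6% and 26.9%, against 55.6% and 13.9%). The lists of WT cells were longer than the corresponding lists of the other experiment.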
